A study of Drosophila melanogaster with 2 samples.

Results

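The genes described here are cad, fkh, byn and hkb, regulators of the posterior gut and of the ends of the fly embryo, and the measurement is where the zinc finger protein Sequoia was bound near them. The material was whole Drosophila melanogaster embryos collected from 0 to 24 h that carried a seq-eGFP transgene, and ChIP-seq with an antibody against GFP gave the sites where the tagged protein was bound. There were 2 biological replicates of this single group, so no other genotype, treatment or stage was compared. All ages and cell types of the embryo are pooled, so less binding per cell and fewer bound cells cannot be told apart, and no peak can be assigned to the gut. The labels do not say whether the embryos also carried an unfused seq gene.

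Peaks were chosen by the measured position of their summits: a peak belonged to a gene when its summit lay in the gene body or within 10 kb either side. In the conservative set, which the authors made from both replicates, this gave 8 of 4099 peaks for the 4 genes (of 13968 protein-coding genes). The 4 genes had been picked with the peaks of these data known, so their counts, signals, ranks and replicate ratios are a description and carry no test. No read depth accompanies the lists. Signal is the strength that the authors' peak caller gave each peak, used to rank peaks within a list (rank 1 is the strongest).

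Caudal, the product of cad, is a homeodomain protein that patterns the posterior of the embryo and is needed for the hindgut. Fork head (fkh), a FoxA factor, and Brachyenteron (byn), the fly Brachyury and a T-box factor, act in the gut primordia, and byn is central to hindgut fate. Huckebein (hkb) is a zinc finger factor of the terminal system, in which the receptor Torso relieves repression by Capicua at the poles of the embryo.

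Sequoia peaks stood directly upstream of cad, fkh and hkb, and no peak was found at byn. In the conservative set cad had 4 summits, fkh 2, hkb 2 and byn 0. A summit in the same kind of window was present for 54.3% of all protein-coding genes, so 3 of 4 genes with a summit is not far from what any gene shows. The position at the start of the gene was less common, since 13.8% of protein-coding genes had a summit within 500 bp of a transcription start site (TSS), against 3 of these 4. Since the genes were picked with these peaks known, nothing further is read from either share. The median protein-coding gene had 1 summit in its window, and 6.44% had at least the 4 of cad. The cad window was longer than most, at 32405 bp against a median of 22.2 kb. Per kb of window cad had 0.123 summits, against a median of 0.0348.

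The same 3 genes had promoter summits in every set the authors deposited. These sets are not independent, since the conservative and pooled sets used both replicates and held the same 3 promoter peaks at the same signals. In the set made from pooled replicates, 3 of 4 had a summit in the window (61.2% of protein-coding genes) and 3 within 500 bp of a TSS (17.3%). In replicate 1's own set the counts were again 3 and 3 (54.0% and 14.3% of protein-coding genes), and in replicate 2's own set 3 and 3 (44.0% and 10.1%).

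**Figure D1:**
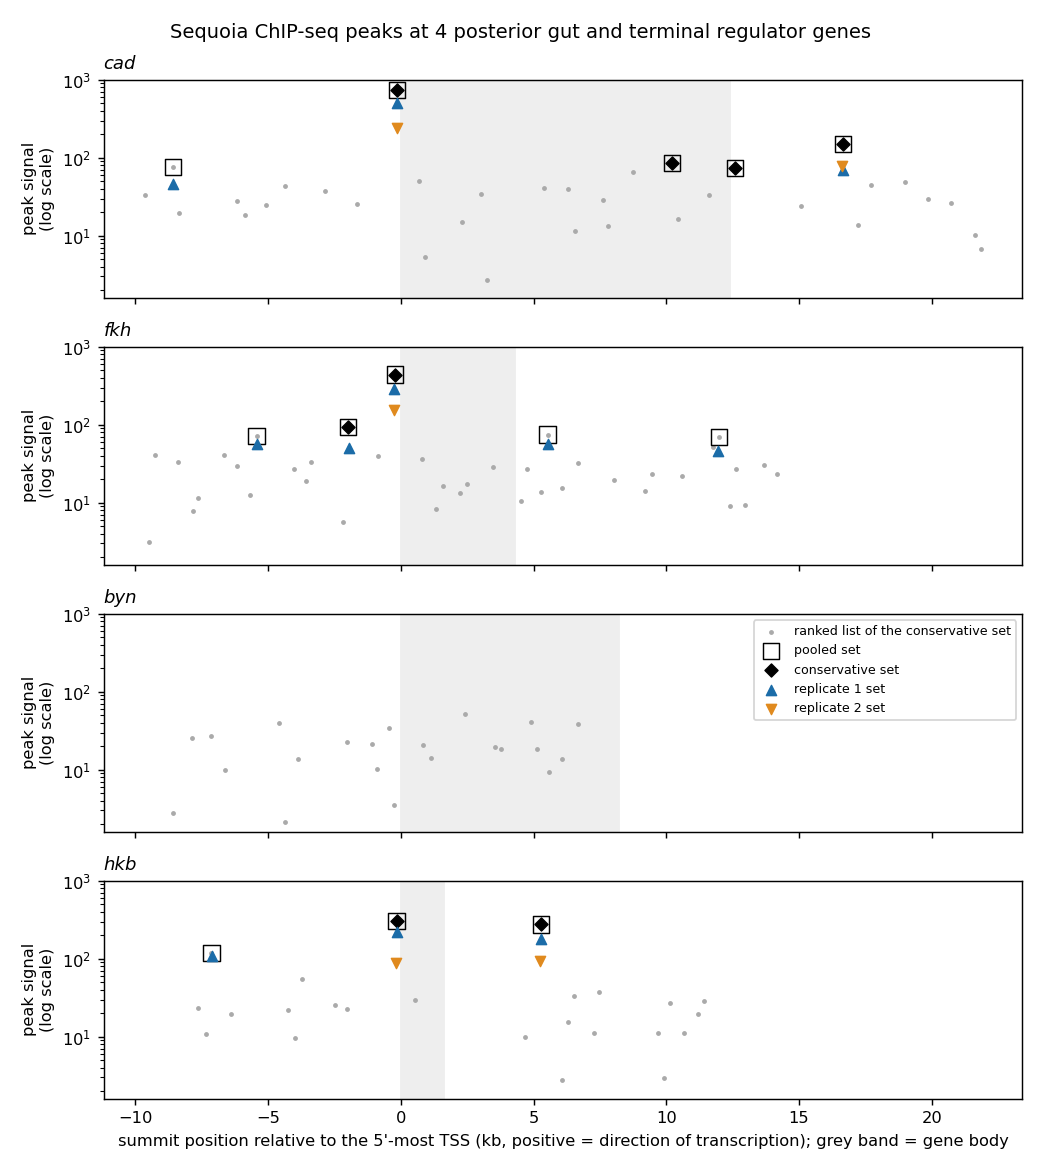
Peaks around cad, fkh, byn and hkb. The x axis is the summit's distance in kb from the 5′-most TSS, positive in the direction of transcription, the y axis is peak signal on a log scale, the grey band is the gene body, and symbols mark the set each peak belongs to (small grey points are all peaks of the ranked list of the conservative set). Summits at 749.5 (cad), 441.7 (fkh) and 303.6 (hkb) lie just left of position 0, and byn has grey points only.

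The bases from 50 bp before to 50 bp after the promoter summits of these 3 genes, which carry the strongest peak of each, are printed in the direction of the gene from the RefSeq Release 6 genome (dm6). Capitals mark any of 14 short words, named below, that were searched on both strands. The windows are 2L:20770539-20770639 on the plus strand for cad, 3R:28585445-28585545 on the minus strand for fkh and 3R:4346760-4346860 on the minus strand for hkb. A weaker summit in an intron of cad (2L:20780909-20781009, plus strand) is added because it holds the Caudal word.
cad promoter: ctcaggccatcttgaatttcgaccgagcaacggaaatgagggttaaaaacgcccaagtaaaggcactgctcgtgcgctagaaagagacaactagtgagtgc
fkh promoter: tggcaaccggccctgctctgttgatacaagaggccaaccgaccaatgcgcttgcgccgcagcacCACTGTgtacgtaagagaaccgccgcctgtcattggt
hkb promoter: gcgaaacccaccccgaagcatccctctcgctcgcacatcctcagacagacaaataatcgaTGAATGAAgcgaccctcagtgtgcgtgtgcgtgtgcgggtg
cad intron: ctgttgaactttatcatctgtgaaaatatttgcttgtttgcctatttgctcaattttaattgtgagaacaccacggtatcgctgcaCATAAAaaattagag

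The hkb promoter window held TGAATGAA, the octamer known as the binding site of Capicua, starting 10 bp downstream of the summit. It was found in 0.951% of the windows around all 4099 conservative summits, and in 1.12% of windows of the same length centred 150 bp upstream of the 5′-most TSS of each protein-coding gene. The fkh promoter window held ACAGTG, in the reverse orientation CACTGT and starting 14 bp downstream of the summit. It was present at 7.25% of all summits and 3.79% of these promoter windows. ACAGTG was searched as a word reported earlier for this whole peak set, so its higher share at all summits is not an independent result. The intronic cad window held TTTATG, the word bound by Caudal itself, in the reverse orientation CATAAA and starting 36 bp downstream of its summit. This word was found at 11.6% of all summits and in 12.4% of promoter windows. The cad promoter window held none of the 14 words. Among the other summits, that inside lncRNA:CR43126 upstream of fkh held AGATAA, the GATA factor word, present at 7.76% of all summits.

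These were 4 matches among 8 summits, or 0.5 words per summit against a mean of 0.603 over all summits. None of the 8 windows held GAGAGA (the GAGA factor Trl), CACACACA, CAGGTAG (Zelda), TATCGATA (the DRE element), TGTTTAC (forkhead factors), TCACACC (a T-box site), TAATCC (Bicoid), CAGCTG or CAGGTG (E-boxes), or TAATTA (homeodomain core). A match gives letters only and is not evidence of binding by the factor. With windows widened to 100 bp on each side, the count of matches was 8, with CACACACA at the hkb promoter, TGTTTAC at the cad intron, AGATAA at the cad promoter and ACAGTG at the second fkh summit added.

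The promoter windows were rich in G and C. The share of G and C was 49.5% at the cad promoter, 59.4% at fkh and 57.4% at hkb, which stood at percentiles 81.4, 96.7 and 94.9 of all conservative summits. The median was 35.6% over all summits and 30.7% over the 507 promoter summits among the 1024 strongest peaks of the set. The other member summits ranged from 24.8% (near the proteasome maturation gene Pomp) to 58.4% (just past the 3′ end of cad). No test was made, because these are few summits at genes that had been picked.

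The promoter peak of cad (2L:20770424-20770732) was the strongest of all member peaks. Its signal was 749.5 in the conservative set, 504.4 in replicate 1 and 237.7 in replicate 2. Its summit lay 142 bp upstream of the 5′-most TSS in the conservative set, and the replicates' own summits lay 7 bp apart. It ranked 44 of 4099 in the conservative set, 18 of 4069 in replicate 1 and 135 of 2675 in replicate 2, so it stood among the strongest peaks of each library and higher in replicate 1. Among the 1925 protein-coding genes with a promoter summit, cad took place 41 by signal.

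Beyond its promoter, cad had 3 weaker conservative summits. The summit at 20787385 had a signal of 151.3 (rank 1370) and lay 271 bp upstream of the TSS of Pomp past the 3′ end of cad, so it belongs to cad only by the window. It was the single member peak with lower signal in replicate 1 (69.97) than in replicate 2 (78.21). The intronic summit at 20780959 had a signal of 84.8 (rank 3224, 43.4 and 35.7 in replicates 1 and 2), and its replicate summits lay 85 bp apart. That at 20783312, 177 bp past the 3′ end of cad, had 74.3 (rank 3671, 45.1 and 33.9). Neither of these last peaks was in either replicate's own set, and 16.6% of all conservative peaks were likewise in neither. Both belong to the 1025 weakest conservative peaks, of which 49.8% were in neither.

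The promoter peak of fkh (3R:28585382-28585628) reached 441.7. Replicate 1 gave 287.4 and replicate 2 gave 153.4. Its summit lay 231 bp upstream of the 5′-most TSS, and both replicates placed their own summit at the same base, 247 bp upstream. The ranks were 161 of 4099, 89 of 4069 and 327 of 2675. The other conservative summit, at 28587247 and 1983 bp upstream of fkh, lay in an exon of the divergent lncRNA:CR43126 and had a signal of 92.6 (rank 2886). It was in replicate 1's own set (50.98) and not in that of replicate 2, where the ranked peak there had 30.1.

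The 2 peaks of hkb were of nearly equal strength, and hkb is the member whose strongest signal is shared between its start and a distal site. The promoter peak (3R:4346739-4346930, summit 164 bp upstream of the TSS) reached 303.6. Replicate 1 gave 221.4 there and replicate 2 gave 89.04. The distal peak (3R:4341277-4341453) lay 3659 bp past the 3′ end of hkb, between hkb and CG1103. Its conservative signal was 276.4, while replicate 1 gave 182.1 and replicate 2 gave 94.83. The order of these peaks thus differed between libraries. In replicate 1 the promoter ranked 178 and the distal site 280 of 4069, and in replicate 2 the distal site ranked 804 and the promoter 894 of 2675. The nearest TSS to the distal summit was that of CG1103, at 3404 bp.

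**Figure D2:**
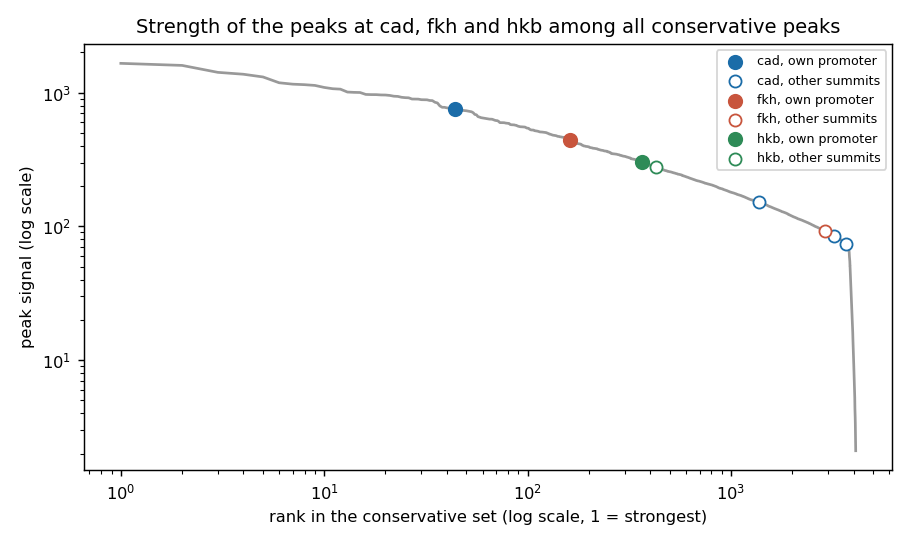
Signal against rank for all 4099 conservative peaks (grey line, both axes log scaled), with the 8 peaks at cad, fkh and hkb marked. Filled points are summits at the gene's own promoter (ranks 44, 161 and 363) and open points are other summits, of which the distal hkb peak at rank 428 is the strongest.

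At byn, a gene of 8227 bp inside the span of CG44837 (byn at 3L:11927693-11935919, plus strand), no thresholded set held a summit in the gene or within 10 kb. The byn window spanned 28227 bp, against a median of 22.2 kb over all protein-coding genes, and peak counts below are not scaled by length. The nearest conservative summit lay 67105 bp away, at the promoter of Pop2. The ranked lists also keep weak peaks that pass no threshold. That of the conservative set held 22 peaks in the byn window, against a median of 24 over the 6380 protein-coding genes without a conservative summit, and those of the replicates held 16 in replicate 1 and 26 in replicate 2, each against a median of 19. The strongest ranked peak of the conservative set's list, 2419 bp into byn, had a signal of 52.6 and an irreproducible discovery rate (IDR) of 0.0929. Its signal stood at percentile 48.7 of the strongest ranked peaks of those other genes, close to their median of 53.0. In the replicates' ranked lists the strongest peak at byn had 27.7 in replicate 1 (percentile 33.4, median of those genes 32.6) and 33.6 in replicate 2 (percentile 78.1, median 28.0), at different places in the gene. The position of byn among these genes thus differed between the libraries, below the median in replicate 1 and above the upper quartile of 32.8 in replicate 2. Within 500 bp of the byn TSS the ranked list of the conservative set held a peak 459 bp upstream, with a signal of 34.5 and an IDR of 0.357, and another 245 bp upstream, with 3.55 and 0.832. The strongest ranked peak in that stretch had 14.9 in replicate 1 (432 bp upstream) and 18.7 in replicate 2 (438 bp upstream). Without the depth of the libraries, weak binding at byn was not detectable here and is not shown to be absent.

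The pooled set added peaks at cad, fkh and hkb, and each was also in replicate 1's own set. These peaks stood in the ranked list of the conservative set too, at the same signals, but did not pass its threshold. The pooled set held 5 summits for cad, 5 for fkh and 3 for hkb, which adds 5 to the conservative set. All 5 were in replicate 1's own set and none in replicate 2's, a pattern seen in 40.9% of the 1605 pooled peaks absent from the conservative set. For hkb the added summit lay 7136 bp upstream, where the pooled signal was 120.0 (108.4 and 15.5 in replicates 1 and 2). For fkh the added summits lay 5440 bp upstream (56.9 and 17.7 in replicates 1 and 2) and, past its 3′ end, 5372 bp (56.5 and 23.6) and 11823 bp (46.3 and 25.7) from the nearest fkh TSS. For cad the added summit lay in an intron of dia, a formin gene, 8575 bp upstream (46.3 and 28.6). Replicate 1's own set thus held 5 summits at fkh and replicate 2's held 1.

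Near the cutoffs, the member peak closest to the IDR limit of 0.00999 was the upstream fkh peak, at 0.00873, and the nearest outside was that in dia, at 0.0128. These IDR values are from the ranked list assigned to the conservative set by content, since the sources do not pair the lists. In the other series-wide ranked list they were 0.00342 and 0.00672, and that of the strongest byn peak was 0.0755. The conservative summit next outside the cad window lay 10790 bp from the gene, at the promoter of dia (signal 97.6). Around fkh the next lay 15179 bp away and around hkb 32271 bp away, both outside the window.

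At the promoters of cad, fkh and hkb and at the distal hkb peak, signal was higher in replicate 1 relative to replicate 2 than at most other peaks. Replicate signals were compared as a log2 ratio of replicate 1 to replicate 2, centred on the median of the 3838 conservative peaks with a matched peak in both ranked lists, which was 0.21. The centred log2 ratio was 0.88 at the cad promoter, 0.70 at fkh, 1.10 at the hkb promoter and 0.73 at the distal hkb peak. These stood at percentiles 91.4, 85.9, 95.7 and 87.2 of all conservative peaks, whose quartiles were -0.35 and 0.42. The median centred ratio of the promoter summits among the 1024 strongest peaks was -0.14, on the other side of 0. At the upstream fkh peak the centred ratio was 0.55, at the intronic and 3′ cad summits 0.07 and 0.20, and at Pomp -0.37. With 1 library on each side of a ratio there is no replicate check of it, and whether collection, depth or another property of a library moves with it was not tested.

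**Figure D3:**
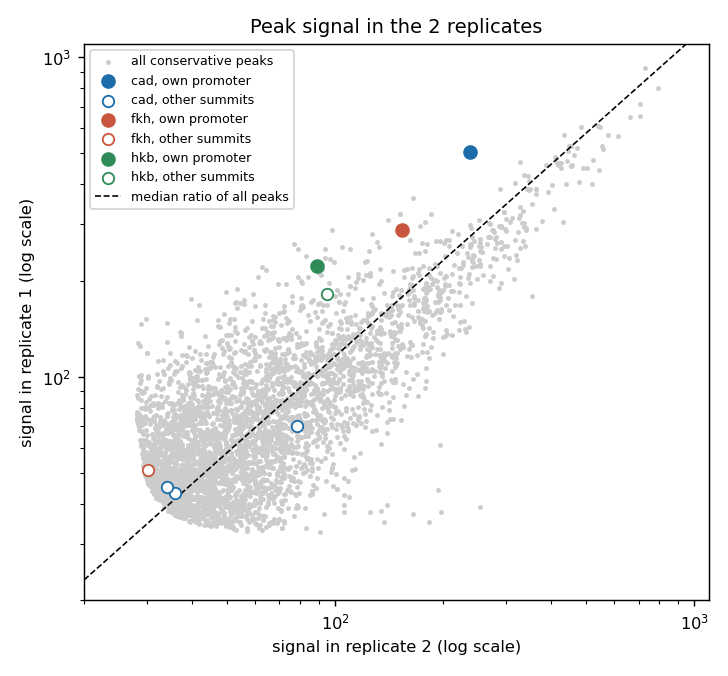
Signal in replicate 1 against replicate 2 for the conservative peaks with a match in both ranked lists (both axes log scaled). The dashed line is the median ratio of all peaks, filled points are own-promoter summits, and the promoters of cad, fkh and hkb and the distal hkb peak lie above the line while the summit near Pomp lies below it.

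Of the 8 member peaks, 5 were in both replicates' own sets, 1 in replicate 1's only and 2 in neither. Over all conservative peaks 49.8% were in both, and among the 1024 strongest 97.7%. The 5 shared peaks were the 3 promoters, the distal hkb peak and that near Pomp, and all were at rank 1370 or stronger. The strongest member peaks were also narrower than most conservative peaks. The conservative promoter peaks spanned 309 bp at cad, 247 bp at fkh and 192 bp at hkb, and the distal hkb peak 177 bp, while the other 4 member peaks had the width of 390 bp that 85.5% of all conservative peaks share. Among the 1024 strongest peaks 43.8% had that width and the median was 294 bp, so narrow peaks are common at this strength. The cad promoter peak was wider than that median. In replicate 2 the peaks at the hkb promoter and the distal site were both 350 bp wide, against 243 and 178 bp in replicate 1.

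The genes most like each member were sought by the ranks of their strongest summits in the own sets of the 2 replicates. For hkb (ranks 178 and 804) these were CG14000, CG9021 and bchs, which share a peak at ranks 186 and 841. The hkb ranks are those of different sites, the promoter in replicate 1 and the distal peak in replicate 2, where the promoter ranked 894. For fkh (89 and 327) they were CG34179, CG9135 and IPIP, which share a peak at 106 and 308. For cad (18 and 135) they were CG18095, NimC3 and bgm, which share a peak at 24 and 65. The summed absolute difference of log2 ranks was 0.128 for hkb, 0.339 for fkh and 1.47 for cad. Neighbouring ranks lie further apart on a log2 scale near the top of a list, where cad stood. The larger sum for cad is therefore not read as a trait of that gene.

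Promoter summits were also present at other genes of the same tissues. In a list of 25 hindgut, Malpighian tubule and posterior midgut genes that includes the 4, 11 (44.0%) had a promoter summit, beside the 13.8% of all protein-coding genes, and 20 of the 25 had a summit in the window, beside 54.3%. Without the 4 genes, which had been picked, the counts were 8 of 21 (38.1%) and 17 of 21 (81.0%). Window counts of the gene lists were not scaled by gene length, and neighbours can share a summit. Thus srp and GATAe had the same strongest window summit (113.2, rank 2159). The strongest promoter peaks in this list were those of cad, fkh (441.7) and bowl (433.8), a zinc finger gene of hindgut patterning. The other promoter summits were at hkb, D (290.2), Abd-B (189.5), otp (189.1), en (131.4), Kr (108.3), eve (97.5) and crb (87.2). The members with no summit in the window were byn, hh, lin, tll and upd1. Besides byn these were the ligand genes hh and upd1, the regulator lin and the other terminal gap gene tll. The list was written with earlier results known and has no test.

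In a list of 17 genes of the terminal system, 2 (11.8%) had a promoter summit, beside 13.8% of all protein-coding genes. A summit in the window was present for 9 (52.9%), against 54.3% of all protein-coding genes. The pair with a promoter summit were gro, the corepressor gene groucho (440.2), and hkb (303.6). Without hkb, which had been picked, the counts were 1 of 16 (6.25%) for promoters and 8 of 16 for windows. The receptor gene tor, its ligand gene trk and its target tll had none in the window. The repressor gene cic had 5 summits in its window, the strongest at 252.1, and none within 500 bp of a TSS.

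**Figure D4:**
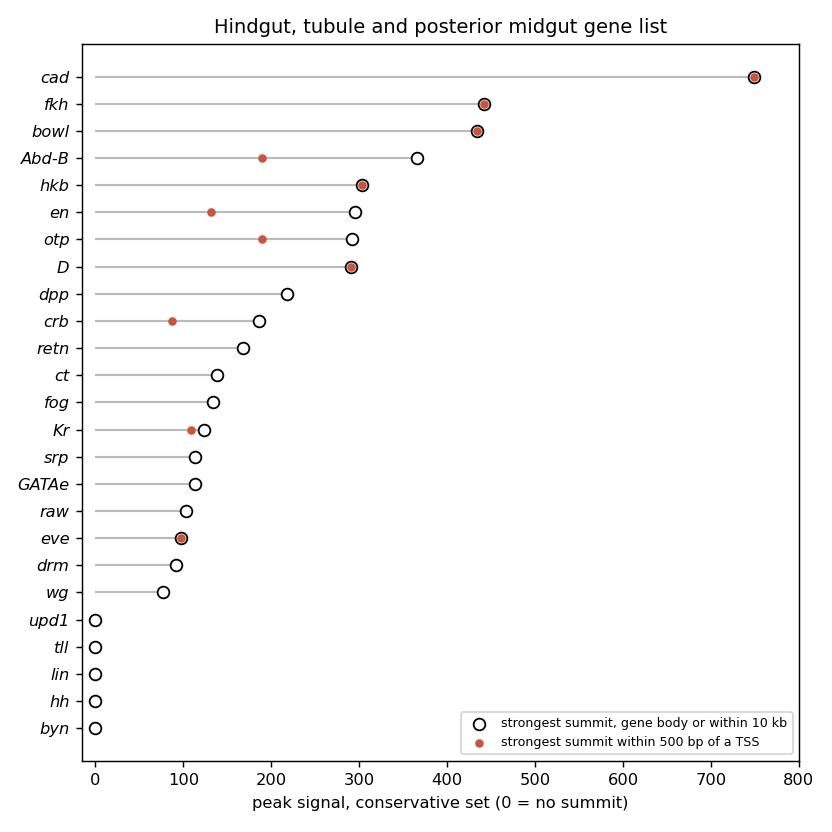
Strongest conservative summit of each of 25 hindgut, tubule and posterior midgut genes (x axis, peak signal, 0 where there was no summit). Open circles are the strongest summit in the gene body or within 10 kb and red points the strongest within 500 bp of a TSS. The genes cad (749.5) and fkh (441.7) lead, and byn, hh, lin, tll and upd1 are at 0.

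Both fkh and byn belong to families of related factors. Of 16 forkhead genes 8 had a promoter summit and 11 (68.8%) a summit in the window, where all protein-coding genes had 13.8% and 54.3%. Without fkh, which had been picked, the counts were 7 of 15 (46.7%) and 10 of 15 (66.7%). The promoter summit of fkh was the strongest, followed by slp1 (298.7) and CHES-1-like (201.6). No summit was in the windows of FoxL1, FoxP, fd102C, fd19B and fd96Cb. Of 8 T-box genes 3 had a promoter summit, org-1 (431.6), mid (172.6) and bi (96.0), and 7 had a summit in the window. These are 37.5% and 87.5%, beside the same 13.8% and 54.3%. The exception was byn, and without it the counts were 3 of 7 (42.9%) and 7 of 7. Doc1, Doc2, Doc3 and H15 had summits in the window only, with the strongest at 221.2 for Doc2 and at 83.0 for H15.

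The higher relative signal in replicate 1 was also present at the promoters of several other genes of these lists. Of the 8 further hindgut list genes with a promoter summit, 6 had a centred log2 ratio above 0, with a median of 0.60, and D (1.17) and Abd-B (1.10) were as far above as hkb. The exceptions were eve (-0.35) and bowl (-0.33). Among the other forkhead genes, 5 of 6 promoter summits with a ratio lay above 0, with slp1 at 1.07, and CHES-1-like lay at -0.12. Of the 3 T-box promoter summits 2 lay above 0, and the strongest, org-1, lay at -0.22. Over all promoter summits of protein-coding genes, 50.1% lay above 0. In the terminal list gro lay at -0.39. No test was made of these shares.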

How the data were processed

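Peak lists of 2 ChIP-seq libraries (replicates 1 and 2 of 1 group, numbered by the labels) were used, with 4 thresholded and 4 ranked lists. Their coordinates are dm6, per the labels. The signal of each peak was deposited as the authors' peak caller gave it, with 1 control alignment that was not analysed here, and no rescaling between lists is stated. The authors' ranked lists give the global irreproducible discovery rate (IDR) as -log10, capped at 5, and the summit offset from the peak start. The series-wide lists used both libraries and the others a single library, per the deposited text files. The peak caller, aligner and versions are not given in the sources used here, depth is unknown, and no interval that needs it is given. The remaining 8 columns of the ranked lists were left unused.

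Summits were set against the Ensembl BDGP6 annotation, release 115, without transposable elements, on the main chromosome arms, within whose reference lengths all their peaks lie, and 1 conservative peak elsewhere was left out. Coordinates are counted from 1, and upstream distances are to the 5'-most TSS. The sources do not pair the series-wide ranked and thresholded lists. The ranked list taken for the conservative set holds all its peaks, at an IDR of at most 0.00999, with 113 more peaks past that value, none at the 4 genes. The other ranked list lacks 3 conservative peaks. A replicate's signal at a conservative peak is that of its strongest ranked peak with a summit inside it. Another 261 conservative peaks lacked such a match. Words were sought from 50 bp before to 50 bp after each summit. Members and lists were chosen with earlier results of these data known. Named genes are the 4 members, genes nearest their peaks, the 3 leading members of each list, members without a summit where 5 or fewer, and the most similar genes, and other list members were named after their values were seen. Gene lists were matched by symbol or unique synonym (fs(1)ph as fs(1)M3, phl as Raf, and fd64A and fd68A as FoxL1 and FoxK, already listed). Functions for window counts and ratios were tested on simulated data. No test of significance was made. Python 3.11.15 with numpy 2.4.6, pandas 2.3.3 and matplotlib 3.10.9 was used.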

Additional observations from a re-analysis of the deposited data

How the results depend on the processing

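The 8 conservative summits at the 4 genes became 13 with windows of 20 kb and 1 with the gene body only. All but the intronic cad summit, the promoter summits included, lay outside the gene bodies. The count was 13 in the pooled list, 13 at an IDR of 0.05 and 5 at an IDR of 0.001. It stayed 8 with windows of 5 kb or any overlap of 1 bp. Leaving out a replicate gave 5 (replicate 2's own list) to 11 (replicate 1's own list). The count of genes with a promoter summit was 3 in each of these lists and 2 with a TSS window of 200 bp, where the fkh summit fell outside. The median rank percent of the strongest summit, 3.93 over the 3 genes with a summit, was 2.19 to 12.2 when a replicate was left out. With the gene body only it was 78.7, the value of the single summit left, at cad. The median centred log2 replicate ratio, 0.62 over 8 peaks, was 0.84 from the thresholded lists, where 5 peaks have a ratio, and 0.73 when centred on the 1024 strongest peaks. The new centre alone adds 0.108 and 0.109 to every ratio, and with the original centre the median of those 5 peaks was 0.73. Word matches rose from 4 to 8 in windows reaching 100 bp either side. Of the values of single genes, 24 summit counts stayed within 1.5 times or at 0, and 12 moved. Those 24 include byn, which was at 0 in every setting. For rank percents, 12 stayed within the spread of the replicates and 4 moved. All 13 log2 ratios that moved by over 0.1 were shifted by these centres. The causes were not tested. No paired analysis was possible because there is 1 group. Depth is unknown, so weak peaks in the ranked lists cannot be told from background.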
